A study of Mus musculus with 12 samples.

Results

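The comparison set the heart ventricles of female LCHADD mice against those of female wild-type (WT) mice, with 3 libraries in each group, 6 of the 12 libraries of the series. Its members were all genes with a normalised read count of at least 10 in at least 3 of these 6 libraries, which were 13387 of the 23730 genes with any read in them and of the 51912 genes in the deposited table. RNA was taken from fresh tissue and the labels record no treatment. They give the genotype as LCHADD or WT and name no allele, strain, age or hour of collection, and nothing says that the 3 libraries of a group came from separate animals. The p-values therefore measure the spread between these samples, which may be technical. The series is titled after acute arrhythmias in this mouse model, so the genes of electrical activity are described beside those of metabolism.

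LCHADD is long-chain 3-hydroxyacyl-CoA dehydrogenase deficiency. The enzyme sits in the mitochondrial trifunctional protein, which carries out the later steps of the beta-oxidation of long-chain fatty acids, the main fuel of the adult heart. When mitochondria or amino acid supply are disturbed, kinases of the integrated stress response phosphorylate the initiation factor eIF2. General translation then slows while the factor ATF4 is translated and, with C/EBP partners, switches on genes of amino acid synthesis, amino acid uptake and tRNA charging.

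Depth ran from 16.7 to 23.2 M reads counted in genes (M, mega), with 21.6 ± 1.37 M in WT and 18 ± 1.19 M in LCHADD (SD, n = 3). Genes of the mitochondrial genome took 27.5 to 28.3% of the reads in WT and 31.6, 31 and 37.9% in LCHADD females 1, 2 and 3. The first principal component held 69.1% of the variance and separated the genotypes, and the second, 13.1%, spread the 3 LCHADD libraries. Each of the 6 libraries held Xist reads, and 0 reads came from the Y-linked genes Ddx3y, Eif2s3y, Kdm5d and Uty, which allows up to 3 reads in a library. Of 8 atrial markers, Myl7 and Sln were below the filter and the other 6 were tested. Of those 6, 1 rose and 0 fell, with a median log2 change of -0.01. Atrial transcripts were thus present in both groups.

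A gene passed at an adjusted p under 0.05 over all 13387 genes, and 3515 passed, which is 26.3% of those tested. Of these, 1727 were higher in LCHADD (12.9% of those tested) and 1788 were lower (13.4%). With a change of at least 1.5-fold also required, 1103 were higher (8.24%) and 1040 were lower (7.77%), 16% of the tested genes in all. The values of the groups did not overlap for 6075 genes (45.4%). The median log2 change over all tested genes, LCHADD minus WT, was -0.002, with 10% of the genes below -0.63 and 10% above 0.64. Scaled to the reads of nuclear genes, 2138 genes were higher and 1425 were lower, a share of 60% higher in place of 49.1%. The plot of the gene lists shows how the calls fell. Among lists of at least 15 tested genes, the share of higher genes was largest for cytosolic ribosomal proteins and cytosolic aminoacyl-tRNA synthetases, and the share of lower genes was largest for the breakdown of branched-chain amino acids and ketone bodies.

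**Figure D1:**
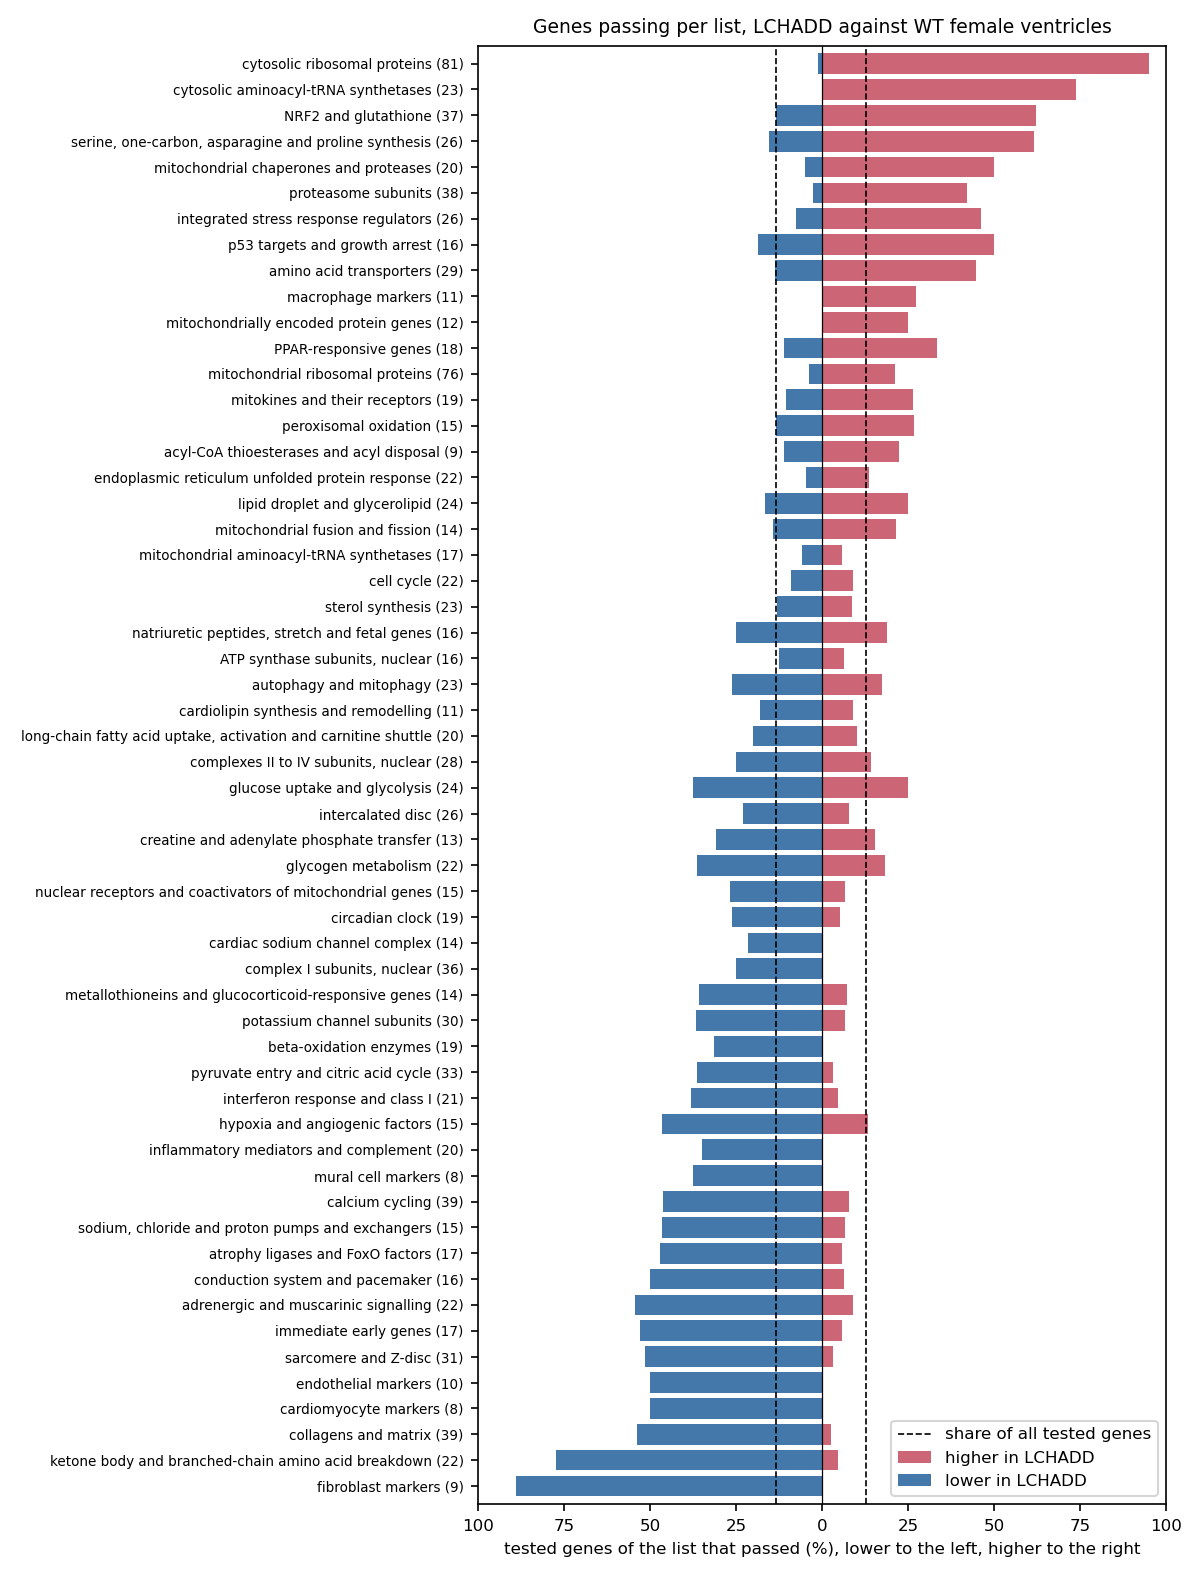
Share of the tested genes of each list that passed, in percent, with genes higher in LCHADD drawn to the right and genes lower in LCHADD to the left. The number of tested genes follows each list's name, and the dashed lines mark 12.9% higher and 13.4% lower, the shares over all 13387 tested genes.

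Hadha, the alpha subunit of the trifunctional protein that carries the deficient activity, had 22401, 21430.0 and 23126 normalised reads in the WT libraries and 25688, 25456 and 23343 in the LCHADD libraries. All LCHADD libraries were above all WT libraries, and the log2 change of 0.15 (SE 0.08) did not pass (adjusted p = 0.2). Hadhb, the beta subunit, went from 33832 ± 1197 to 40089 ± 1924 (log2 change 0.24, adjusted p = 0.062) and did not pass either. Hadhb did pass, at changes of 0.24 to 0.31, in some other settings, among them DESeq2 (adjusted p = 0.042), edgeR (0.049), scaling to the reads of nuclear genes (0.025) and leaving out LCHADD female 3 (0.023). Neither level checks the genotype labels, because read counts do not show a change of sequence and no label describes the alteration.

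Some genes of amino acid synthesis and of the integrated stress response, described below, hold the ATF4 and C/EBP element TGATGNAA in their promoters, and 5 of them are shown. They are the 5 genes with the largest change, in either direction, among the members of the serine and stress response lists whose 250 bases before the gene start hold the element on either strand. Sequences are from RefSeq on build GRCm38.p6, which had a promoter for 10143 of the 13387 tested genes. They lie at chr6:7693210-7693459 (minus strand) for Asns, chr11:120643749-120643998 (minus) for Pycr1, chr7:126625471-126625720 (minus) for Nupr1, chr2:119350992-119351241 (plus) for Chac1 and chr19:27216770-27217019 (plus) for Vldlr, each ending at the base before the gene start. Capitals mark the element, as TGATGNAA or as its reverse complement.
Asns: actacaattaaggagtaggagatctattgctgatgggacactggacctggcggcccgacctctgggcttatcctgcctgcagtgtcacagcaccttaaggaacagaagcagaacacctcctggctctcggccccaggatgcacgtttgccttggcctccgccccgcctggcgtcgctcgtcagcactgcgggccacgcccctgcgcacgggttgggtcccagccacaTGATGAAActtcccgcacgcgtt
Pycr1: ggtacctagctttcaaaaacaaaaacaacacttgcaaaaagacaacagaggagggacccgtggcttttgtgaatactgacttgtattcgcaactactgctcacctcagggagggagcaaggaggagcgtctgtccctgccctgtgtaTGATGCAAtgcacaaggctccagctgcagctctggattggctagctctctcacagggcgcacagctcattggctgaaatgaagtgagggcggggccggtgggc
Nupr1: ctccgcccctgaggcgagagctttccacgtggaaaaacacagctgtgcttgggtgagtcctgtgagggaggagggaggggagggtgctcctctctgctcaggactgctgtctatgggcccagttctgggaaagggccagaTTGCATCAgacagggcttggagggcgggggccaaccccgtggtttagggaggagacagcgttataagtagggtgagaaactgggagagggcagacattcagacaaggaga
Chac1: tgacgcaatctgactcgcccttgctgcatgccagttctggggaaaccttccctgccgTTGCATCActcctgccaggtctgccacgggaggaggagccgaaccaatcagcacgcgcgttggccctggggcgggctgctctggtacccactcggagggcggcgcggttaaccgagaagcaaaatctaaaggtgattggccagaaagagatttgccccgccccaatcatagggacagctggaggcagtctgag
Vldlr: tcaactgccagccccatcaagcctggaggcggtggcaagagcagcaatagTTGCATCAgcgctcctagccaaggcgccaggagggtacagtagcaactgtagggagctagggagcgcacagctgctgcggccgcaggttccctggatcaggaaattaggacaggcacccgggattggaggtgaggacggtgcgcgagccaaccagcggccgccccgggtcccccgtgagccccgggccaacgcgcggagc
The element's first printed base is 23 bases before the start in Asns, 103 in Pycr1, 110 in Nupr1, 193 in Chac1 and 200 in Vldlr. It was found in 3.91% of all 27025 promoters of that table, in 2.40% of those of tested genes, in 2.51% of those of genes higher in LCHADD and in 2.93% of those of genes lower in LCHADD. Among the 25 largest rises, 4 of the 22 with a promoter held it (Asns, Fgf21, Pycr1 and Slc7a11). Among the stress response regulators 5 of 22 held it, and those were Chac1 and Nupr1, which rose, Vldlr, which fell, and Atf3 and Jdp2, which did not pass. A match describes the letters of this window and shows no binding.

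Genes that make serine, one-carbon units, asparagine and proline were higher in LCHADD females as a group. Of the 26 tested members of that list 16 rose and 4 fell, with a median log2 change of 0.77. Phgdh, the enzyme that commits a glycolytic intermediate to serine, had 15.7, 13 and 14.5 normalised reads in WT and 1314, 1411 and 1046 in LCHADD (log2 change 6.34, SE 0.16, adjusted p = 1.4e-07). Psat1, which acts next, had 27.4, 32.9 and 59.9 in WT and 1977, 3518 and 926 in LCHADD. The LCHADD libraries were far above the WT libraries for both, and differed among themselves more for Psat1 than for Phgdh. Psph, which finishes serine synthesis, rose less, from 73.9 ± 0.57 to 139 ± 31.5 (log2 change 0.87, adjusted p = 0.0088).

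Among one-carbon enzymes the changes went in both directions. Mthfd2, the mitochondrial methylenetetrahydrofolate dehydrogenase, had 38.3, 33.8 and 35.1 normalised reads in WT and 5496, 5992 and 4167 in LCHADD (log2 change 7.14, SE 0.14, adjusted p = 3.7e-08). Its mitochondrial partners Aldh1l2 (log2 change 2.93), Mthfd1l (2.51) and Shmt2 (1.01) rose, and so did cytosolic Shmt1 (1.66). Cytosolic Mthfd1 did not pass at 0.35, and Mthfd2l, a mitochondrial relative of Mthfd2, fell from 92.8 ± 8.87 to 50.5 ± 4.42. Aldh1l1, the cytosolic counterpart of Aldh1l2, had 71.2, 82.4 and 84.7 in WT and 41.6, 7.77 and 31.7 in LCHADD. It passed at -1.80, was -1.10 without LCHADD female 2, and did not pass without WT female 1, 2 or 3 (adjusted p = 0.083, 0.092 and 0.10).

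Asns, asparagine synthetase, had 29, 21.7 and 35.1 normalised reads in WT and 2807, 3315 and 1688 in LCHADD (log2 change 6.43, SE 0.26). The proline enzymes Pycr1 and Aldh18a1 had log2 changes of 4.83 and 3.30. The 2 alanine aminotransferases moved apart. Gpt2, the mitochondrial form, rose from 654 ± 11.7 to 1126 ± 75.6 and Gpt, the cytosolic form, fell from 631 ± 57.1 to 291 ± 112.

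**Figure D2:**
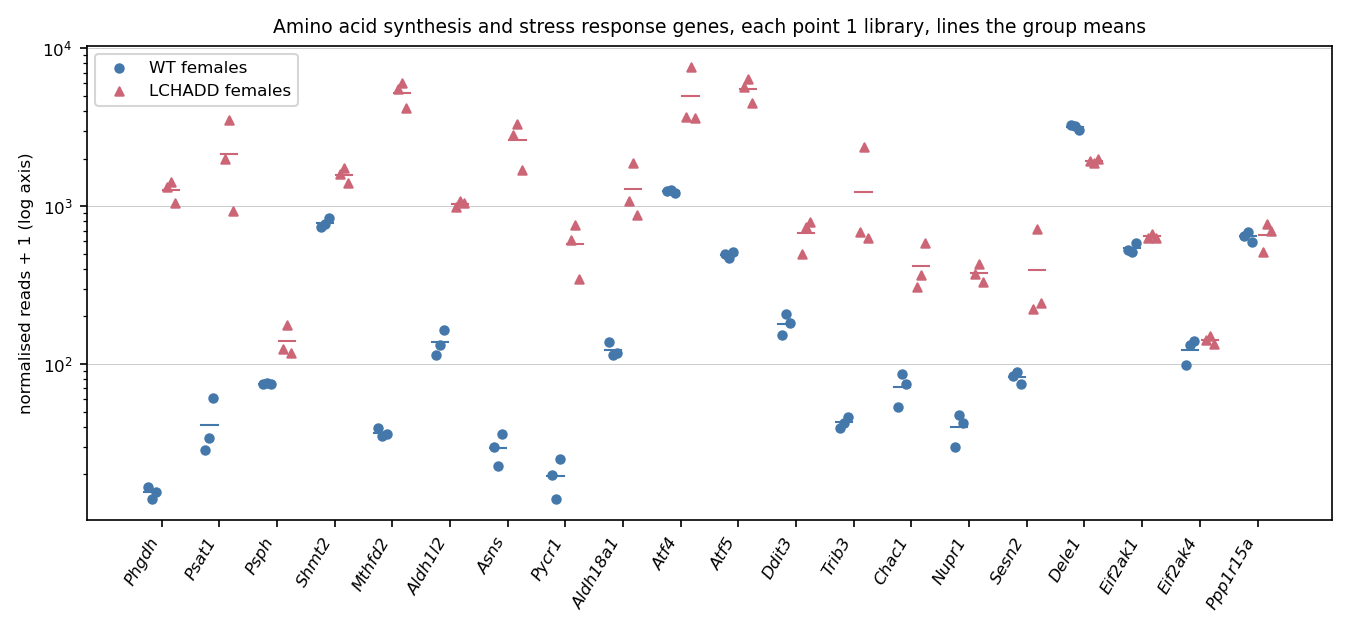
Normalised read counts plus 1, on a log axis, of genes of serine, one-carbon, asparagine and proline synthesis and of stress response regulators. Each point is 1 library (replicates 1 to 3 from left to right, WT circles, LCHADD triangles) and each short line a group mean, with the groups apart for Phgdh, Mthfd2 and Asns and overlapping for Eif2ak4 and Ppp1r15a.

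Among 26 tested regulators of the integrated stress response 12 rose and 2 fell (median log2 change 0.42). Atf4 had 1243, 1255 and 1215 normalised reads in WT and 3675, 7586 and 3588 in LCHADD (log2 change 1.91, SE 0.25, adjusted p = 9.8e-04). The related factor Atf5, linked to the mitochondrial unfolded protein response, had 493, 469.9 and 510.1 in WT and 5679.9, 6378 and 4463 in LCHADD (log2 change 3.47, SE 0.13, adjusted p = 1.9e-06). Ddit3, Cebpg, Trib3, Nupr1, Chac1 and Sesn2 rose by 1.89, 1.29, 4.56, 3.26, 2.52 and 2.04 on the log2 scale. LCHADD female 2 was the highest library for Atf4, Trib3 and Sesn2, and LCHADD female 3 for Chac1 and Ddit3.

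Eif2s1, the eIF2 subunit that the kinases phosphorylate, had 640.1, 671 and 652 normalised reads in WT and 1102, 1390.4 and 889 in LCHADD (log2 change 0.76, SE 0.15, adjusted p = 0.0064). None of the 4 eIF2 kinase genes passed, with log2 changes of 0.25 for Eif2ak1 (HRI), 0.07 for Eif2ak2 (PKR), 0.24 for Eif2ak3 (PERK) and 0.22 for Eif2ak4 (GCN2). Dele1, which carries the signal from mitochondria to HRI, fell from 3243, 3208 and 3032 to 1930.1, 1883 and 1994 (log2 change -0.71, SE 0.07, adjusted p = 3.4e-04), and its protease Oma1 did not pass (-0.15). The feedback phosphatase subunit Ppp1r15a did not pass at 0.02. Atf3 and Ddit4, often induced with Ddit3, did not pass at 0.15 and -0.55, and their groups overlapped. These are transcript levels and do not show the activity of the kinases.

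Of 29 tested amino acid transporters 13 rose and 4 fell (median log2 change 0.35). The falls were a share close to the 13.4% over all tested genes, and they numbered 0 without WT female 1 or 2, 1 without LCHADD female 1 and 2 without WT female 3. Slc7a5, the large neutral amino acid carrier, had 112, 99.7 and 113 normalised reads in WT and 1059.6, 2374 and 888 in LCHADD (log2 change 3.59, adjusted p = 1.2e-04), and Slc3a2, its heavy chain, had 534, 545 and 521 against 1305, 2324 and 1266. Slc38a1 (glutamine; log2 change 3.20) and Slc1a4 (alanine, serine and cysteine; 2.76) also rose. Slc7a3, a carrier of cationic amino acids, had 3 reads over the WT libraries and 656 over the LCHADD libraries, a ratio of normalised reads of 272 (exact Clopper-Pearson 95% interval 92.7 to 1323, counting error only). LCHADD female 2 was the highest library for all of these.

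Transcript levels of the cytosolic ribosomal proteins moved nearly as a block, and the rate of protein synthesis was not measured. Of 81 tested cytosolic ribosomal protein genes 77 rose, 1 fell and 3 did not pass, with a median log2 change of 0.94 against -0.002 over all tested genes. The count of rises was 76 or 77 with each library left out in turn. Rps12 had 3003, 3082 and 3099 normalised reads in WT and 7544, 6662 and 7622 in LCHADD (log2 change 1.25, SE 0.08, adjusted p = 4.7e-05), and Rplp0, a stalk protein, went from 14097 ± 1049 to 25905 ± 1068. The LCHADD libraries lay close together for both and did not overlap with WT. Many of these genes have processed copies in the genome, and the counting does not state how shared reads were treated.

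The 1 member that fell was Rpl3l, the form of ribosomal protein L3 that heart and skeletal muscle make in place of Rpl3. Rpl3l had 4105, 4023 and 3793 normalised reads in WT and 1164, 877 and 1641 in LCHADD (log2 change -1.74, SE 0.19, adjusted p = 4.1e-04). Rpl3 had 2599.6, 2536 and 2435 in WT and 10949.6, 11784 and 8468 in LCHADD (log2 change 2.03, SE 0.12, adjusted p = 3.0e-05). The share of Rpl3l in the summed normalised reads of the pair was 61.2, 61.3 and 60.9% in WT and 9.6, 6.93 and 16.2% in LCHADD. Eef1a1, the elongation factor of most tissues, likewise went from 10138, 9981 and 10562 to 76879, 81346 and 64889.7 (log2 change 2.86, SE 0.10), while Eef1a2, the form of muscle and neurons, did not pass (-0.05). Rpl3l, Rplp0 and the Eef1a genes were named after their values were seen.

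Of 23 tested cytosolic aminoacyl-tRNA synthetase genes 17 rose and 0 fell (median log2 change 0.89). Gars, for glycine, had 942, 893 and 926 normalised reads in WT and 5066, 6782 and 3303 in LCHADD (log2 change 2.39, SE 0.21). Sars, for serine, followed with 2.12, Eprs, for glutamate and proline, with 1.83 and Aars, for alanine, with 1.27. Wars (tryptophan), Farsa (phenylalanine) and Qars (glutamine) did not pass, at 0.13, 0.01 and 0.15. Of the 17 mitochondrial synthetase genes 1 rose and 1 fell (11.8% passing), with a median of -0.06, and Iars2 was at 2164 ± 78.1 in WT and 2037 ± 81.8 in LCHADD. The mitochondrial ribosomal proteins had 16 rises and 3 falls among 76 (median 0.12), with 25% passing against 26.3% of all tested genes. The rises numbered 9 without LCHADD female 1, WT female 1 or WT female 3, 10 without WT female 2 and 23 without LCHADD female 2. Scaled to the reads of nuclear genes, 27 mitochondrial ribosomal protein genes rose and 1 fell. Of 38 proteasome subunits 16 rose and 1 fell (median 0.28). The rises numbered 10 without WT female 1, and the 1 that fell was the interferon-inducible Psmb9 (-0.82).

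**Figure D3:**
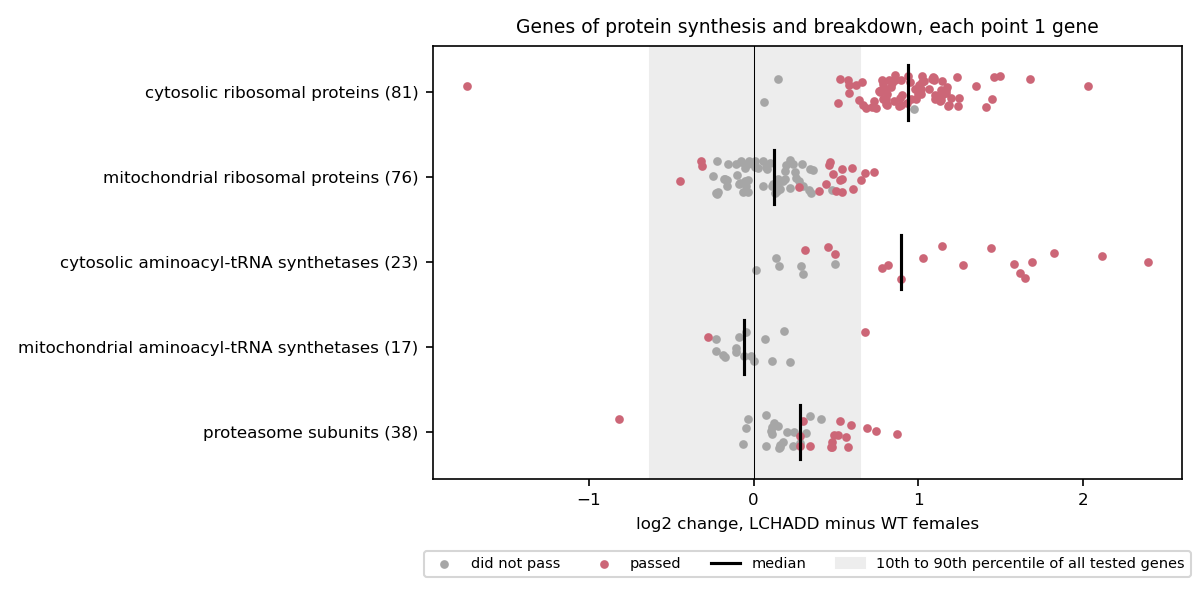
Log2 change, LCHADD minus WT females, of each tested gene of cytosolic and mitochondrial ribosomal proteins, of both sets of aminoacyl-tRNA synthetases and of the proteasome. Points are genes (red passed, grey did not), black bars are list medians and the grey band runs from -0.63 to 0.64, between which lie 80% of all tested genes. The lone point at -1.74 among the cytosolic ribosomal proteins is Rpl3l.

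Genes of the conduction system and of pacemaking were lower in LCHADD females. Of 16 tested members 8 fell and 1 rose (median log2 change -0.52), and the falls numbered 4 without WT female 1 and 5 without WT female 2. Cntn2, an adhesion molecule of the Purkinje fibres, had 116, 98 and 61.6 normalised reads in WT and 9.84, 5.83 and 15.8 in LCHADD (log2 change -3.06, SE 0.38, adjusted p = 8.0e-04). Hcn4, the main pacemaker channel of the conduction system, had 171, 158 and 181 in WT and 24.1, 33 and 25.4 in LCHADD (log2 change -2.59, SE 0.19, adjusted p = 6.9e-05). Hcn2, the related channel of working muscle, moved the other way, from 343, 323 and 270.4 to 717, 569.9 and 682 (log2 change 1.07, SE 0.13). In all 3 genes the groups were apart. Tbx5, a transcription factor needed for the ventricular conduction system, went from 553 ± 38 to 279 ± 56 (log2 change -1, adjusted p = 0.0018), and Tbx3, which marks it, did not pass (-0.39). In bulk tissue fewer cells of a type and less RNA per cell cannot be told apart.

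Of 30 tested potassium channel subunits 11 fell and 2 rose (median log2 change -0.50). The falls numbered 6 without WT female 2 or 3, and the rises 0 without WT female 3 and 1 without LCHADD female 1 or WT female 2. Kcnh2, the channel of the rapid delayed rectifier current, had 1640.2, 1486 and 1690.2 normalised reads in WT and 841, 654 and 1069 in LCHADD (log2 change -0.94, SE 0.16, adjusted p = 0.0037). Kcnj12 (-1), a channel of the inward rectifier current, and Kcnj11 (-0.56), the pore of the ATP-sensitive channel, fell without overlap. Kcnq1 and Kcne1 make the pore and the accessory subunit of the slow delayed rectifier and moved apart. Kcnq1 had 918, 944 and 863 in WT and 558, 287 and 612 in LCHADD, and Kcne1 had 157, 143 and 84.7 in WT and 599, 213 and 317 in LCHADD. Kcnq1 passed at -0.98, was -0.64 without LCHADD female 2 and did not pass without WT female 1, 2 or 3 (adjusted p = 0.069, 0.067 and 0.059). Kcne1 passed at 1.46 and did not without WT female 3 (adjusted p = 0.073). Kcnd2 and Kcnj2, channels of the transient outward and inward rectifier currents, did not pass (log2 changes -1 and -0.81), with LCHADD female 2 the lowest library for both at 104 and 255.

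The sodium channel list had 3 falls and 0 rises among 14 tested genes, with 1 fall without WT female 1 or 2. Those passing were 21.4% of the list, below the 26.3% over all tested genes. Scn4a, the skeletal muscle channel, went from 788 ± 217 normalised reads to 261 ± 103 (log2 change -1.65, adjusted p = 0.0056). Of the gap junction genes, Gjc1 fell (-0.66) and the main ventricular connexin Gja1 did not pass (-0.22). Among pumps and exchangers 7 of 15 fell and 1 rose, with 4 falls left without LCHADD female 1, WT female 1 or WT female 3.

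**Figure D4:**
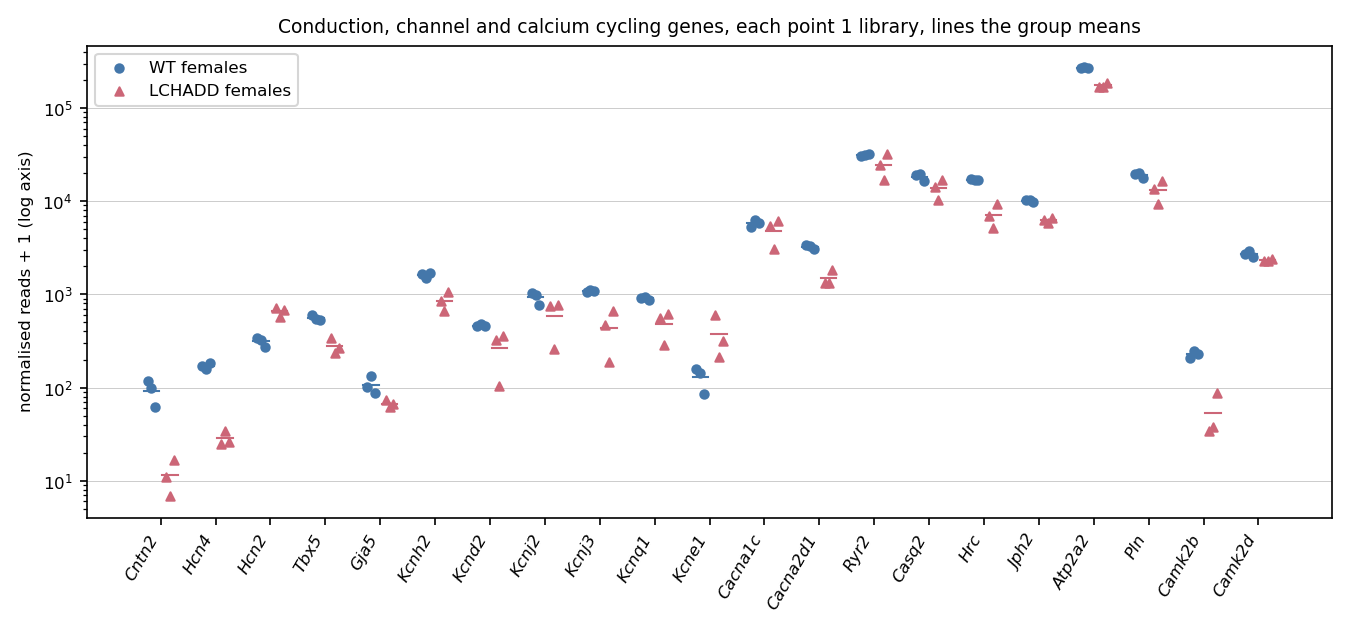
Normalised read counts plus 1, on a log axis, of genes of the conduction system, of ion channels and of calcium cycling. Each point is 1 library (replicates 1 to 3 from left to right, WT circles, LCHADD triangles) and each short line a group mean. Hcn4 is lower and Hcn2 higher in all LCHADD libraries, and LCHADD female 2 is the lowest point for Kcnd2, Kcnj2, Cacna1c and Ryr2.

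Of 39 tested genes of calcium cycling 18 fell and 3 rose (median log2 change -0.43), with 11 falls without WT female 1 or 2 and 0 or 1 rises without LCHADD female 1 or any 1 WT library. Hrc, the histidine-rich calcium-binding protein of the sarcoplasmic reticulum, had 17313, 16789.5 and 16997 normalised reads in WT and 6919.9, 5203 and 9371 in LCHADD (log2 change -1.29, SE 0.18, adjusted p = 0.0014). Cacna2d1, an accessory subunit of the L-type channel, went from 3247 ± 166 to 1491 ± 288 (-1.14), and Jph2, which ties the reticulum to the T-tubule, from 10089 ± 329 to 6258 ± 349.8 (-0.69). Atp2a2, the calcium pump SERCA2, had 266365, 276002 and 270129 in WT and 167825, 168564 and 187726 in LCHADD (log2 change -0.63, SE 0.11, adjusted p = 0.004). Camk2b went from 227 ± 19.1 to 52.1 ± 30 (-2.24), while Camk2d, the main kinase of this family in heart, did not pass (-0.22). The pore of the L-type channel Cacna1c (-0.32), the release channel Ryr2 (-0.40) and the store protein Casq2 (-0.43) did not pass, and their groups overlapped.

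Receptors and enzymes of adrenergic and muscarinic signalling had 12 falls and 2 rises among 22 tested genes (median log2 change -0.40). The falls numbered 6 without WT female 1 or 2 and 7 without WT female 3, and the rises numbered 0 or 1 without any 1 library other than LCHADD female 2. Adra1b, an alpha-1 receptor, had 657, 585 and 965 normalised reads in WT and 311, 173 and 316 in LCHADD (log2 change -1.48, SE 0.26, adjusted p = 0.0039). Chrm2, the muscarinic receptor that slows the heart, had 1782, 2199.7 and 2372 in WT and 1241, 623 and 1044 in LCHADD (log2 change -1.17, adjusted p = 0.0064). Rgs2, which limits signalling by Gq, went from 709 ± 89.3 to 219 ± 79.8 (-1.74). The adenylyl cyclase gene Adcy5 did not pass (-0.07). Dbh, which makes noradrenaline and is listed here as a neuronal marker, had 84.5, 81.5 and 65.9 in WT and 2.19, 1.94 and 6.34 in LCHADD (log2 change -4.25, SE 0.40, adjusted p = 2.0e-04).

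Sarcomere genes were mostly lower. Of 31 tested genes of the sarcomere and Z-disc 16 fell and 1 rose (median log2 change -0.42), with 8 falls without WT female 1 or 2 and 10 without WT female 3. Tnni3, cardiac troponin I, had 72644, 74544 and 69021 normalised reads in WT and 46027, 41056 and 47968 in LCHADD (log2 change -0.68, SE 0.10, adjusted p = 0.0015). Tnnt2 (-0.66), Tpm1 (-0.71), Myom2 (-0.84) and Tcap (-1.05) fell by similar or larger amounts. Myh6, the adult heavy chain, went from 412097 ± 7500.4 to 259169 ± 52336 (-0.69, adjusted p = 0.015), and did not pass without WT female 1 or 2 (adjusted p = 0.069 and 0.062). Of 8 cardiomyocyte markers 4 fell and 0 rose (median -0.63), with 2 falls without WT female 1 or 2 and 7 without LCHADD female 3. One of the 4, Pln, shares most of its exon bases with an antisense model, and the counting does not state strand.

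The 1 sarcomere gene that rose was Acta1, the actin of skeletal muscle and of the fetal heart. It had 2005, 1796 and 1408 normalised reads in WT and 13089, 13558 and 12646 in LCHADD (log2 change 2.93, SE 0.12, adjusted p = 3.9e-06). In the list of natriuretic peptides, stretch and fetal genes 3 of 16 rose and 4 fell, with 6 rises without LCHADD female 3. Ankrd1, a stretch-responsive Z-disc protein, rose from 9956, 8994 and 10994 to 43206, 50922 and 20338 (log2 change 1.84, SE 0.29). Nppa and Nppb, the natriuretic peptides, had log2 changes of 0.22 and -0.04, and Myh7, the fetal heavy chain, of 0.44. None of the 3 passed and all overlapped between the groups. Nppa shares 61.5% of its exon bases with an antisense model, and the counting does not state strand. Corin and Furin, proteases that process the natriuretic peptides, fell (-0.62 and -0.64), as did the receptor Npr2 (-0.48). Ostn, a secreted peptide that competes for the clearance receptor, had 0.783, 0 and 5.99 in WT and 977, 1914 and 671 in LCHADD. Npr3, that receptor, did not pass (-0.08).

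Of 19 tested beta-oxidation genes 6 fell and 0 rose (median log2 change -0.04), with 31.6% passing against 26.3% of all tested genes. The falls numbered 3 without WT female 1 or 2, and 2 genes rose when scaled to the reads of nuclear genes. Those that fell act on medium and short chains or on electrons, such as Acads, which had 4782, 4703 and 5582 normalised reads in WT and 3496, 3233 and 3331 in LCHADD (-0.58, SE 0.09, adjusted p = 0.0022). Acaa2 (-0.56) and Hadh (-0.46) fell as well. Acadvl, the enzyme before the trifunctional protein, did not pass (-0.12). Lpl, which frees fatty acids from circulating lipoproteins, fell from 110984 ± 4383 to 68634 ± 5470.1 (-0.70), and the uptake receptor Cd36 did not pass (0.07). Fabp3, the fatty acid-binding protein of heart, rose from 56148 ± 4673 to 85751 ± 8276 (0.61).

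PPAR-responsive genes were uneven. Of 18 tested members 6 rose and 2 fell, and without WT female 3 the rises numbered 9, without WT female 1 they numbered 3 and without WT female 2 or LCHADD female 1 they numbered 4. Pdk4, the kinase that shuts pyruvate dehydrogenase, had 3499.5, 3215 and 14315 normalised reads in WT and 22136, 24135 and 25173 in LCHADD (log2 change 2.13, SE 0.47, adjusted p = 0.012). WT female 3 stood apart from the other WT libraries and still below all LCHADD libraries. The call was lost without WT female 1 (adjusted p = 0.054) and also with DESeq2. Angptl4, an inhibitor of lipoprotein lipase, had 27.4, 54.6 and 363 in WT and 375, 381 and 474 in LCHADD and did not pass (log2 change 2.30, SE 0.75, adjusted p = 0.051). Acot2, a mitochondrial acyl-CoA thioesterase, had 803, 682 and 1502 in WT and 3990.3, 10019.9 and 3013 in LCHADD (2.40, SE 0.43, adjusted p = 0.0044). Acot1 is a near copy of it, and reads shared by the 2 may have been split. Of the nuclear receptors, Ppara (-0.18), Esrra (-0.05) and the coactivator Ppargc1a (0.41) did not pass, while Perm1, a muscle coregulator of oxidative genes, fell from 8714 ± 516 to 4642 ± 1001 and Rxra from 1444 ± 93.7 to 861 ± 114.

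Breakdown of branched-chain amino acids and ketone bodies was the metabolic list with the largest share of falls, 17 of 22, with 1 rise and a median log2 change of -0.41. The falls numbered 11 without WT female 1 or 2. Ivd, isovaleryl-CoA dehydrogenase of the leucine pathway, had 10074, 10176 and 10405 normalised reads in WT and 4572, 4032 and 5151 in LCHADD (log2 change -1.16, SE 0.10, adjusted p = 1.1e-04). Acadsb, which acts on isoleucine, fell from 3109 ± 209 to 1995 ± 107 (-0.64), and the leucine enzyme Mccc1 from 1703 ± 34.1 to 1227 ± 129 (-0.48). Bcat2, the transaminase at the entry, did not pass (0.11), and neither did Oxct1, which activates ketone bodies (-0.17).

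The citric acid cycle list had 12 falls and 1 rise among 33 (median log2 change -0.16), with 6 falls without WT female 1 or 2. Idh2, the NADP-dependent mitochondrial isocitrate dehydrogenase, had 41102, 41093 and 40604 normalised reads in WT and 22614, 22568 and 23754 in LCHADD (log2 change -0.83, SE 0.08, adjusted p = 1.8e-04). The catalytic subunit of the NAD-dependent enzyme, Idh3a, did not pass (-0.03). In glycogen metabolism 4 genes rose and 8 fell of 22, with 3 falls without WT female 1, 4 without LCHADD female 1 or WT female 2 and 5 without WT female 3 or when scaled to the reads of nuclear genes. Gyg, the glycogenin that primes glycogen, had 3216, 3093 and 2634 in WT and 8402, 10226 and 6275 in LCHADD (1.45, SE 0.16). Stbd1, which tethers glycogen for lysosomal uptake, had 134, 207 and 168 in WT and 694, 1844 and 607 in LCHADD (2.45, SE 0.37). Gbe1, the branching enzyme, rose by 0.91 on the log2 scale. Gys1, glycogen synthase, fell by 0.32 on that scale, and the catalytic subunit of muscle phosphorylase kinase, Phkg1, had 390.5, 395 and 285 in WT and 20.8, 16.5 and 56 in LCHADD (-3.67, SE 0.39).

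Several proteins of fuel and energy metabolism exist in a form typical of heart or muscle and a form of other tissues. In 20 such gene pairs, collected after the values were seen, the muscle form was lower in 14 and higher in 0, and the other form was higher in 11 and lower in 3. In 7 pairs the muscle form fell and the other rose, which were Rpl3l and Rpl3, Slc25a4 and Slc25a5, Slc2a4 and Slc2a1, Pfkm and Pfkp, Pgam2 and Pgam1, Cox7a1 and Cox7a2, and Cox8b and Cox8a. Slc25a4, the muscle carrier of ADP and ATP, had 100034, 104348 and 98365 normalised reads in WT and 70777, 70834 and 79391 in LCHADD (log2 change -0.46), and Slc25a5 had 4526, 4558 and 4163 against 9701, 9685 and 8705 (1.08, SE 0.08). The call for Slc25a4 was lost without WT female 2 (adjusted p = 0.058) and also when no filter was set on the genes tested. Slc2a4, the insulin-responsive glucose transporter, fell from 8778 ± 531 to 5091 ± 939 (-0.80). Slc2a1 went from 267 ± 12.2 to 537 ± 263 (0.89), was 0.52 without LCHADD female 2 and did not pass without LCHADD female 1 or any WT library (adjusted p = 0.10 to 0.13). Pgam1 and Pgam2 did not pass without LCHADD female 1 or any WT library either (adjusted p = 0.055 to 0.086). Pfkm fell and Pfkp rose by 0.71 and 0.99 on the log2 scale. The share of Cox8b in its pair was 80.6, 82.8 and 84.4% in WT and 60.6, 58.7 and 67% in LCHADD.

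Other pairs did not follow. Ldhb and Ldha both fell, and Ldha, the form of anaerobic glycolysis, fell more, from 11230.4 ± 676 to 4842 ± 1026 (log2 change -1.23, SE 0.15, adjusted p = 6.3e-04). Cox6a2, the muscle form of that subunit, did not pass (-0.05) while Cox6a1 rose (1.00). Eno3, the muscle enolase, had 23066, 24284 and 21166 normalised reads in WT and 7854, 6302 and 12915 in LCHADD (-1.40, SE 0.22), and Eno1 did not pass (0.11).

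**Figure D5:**
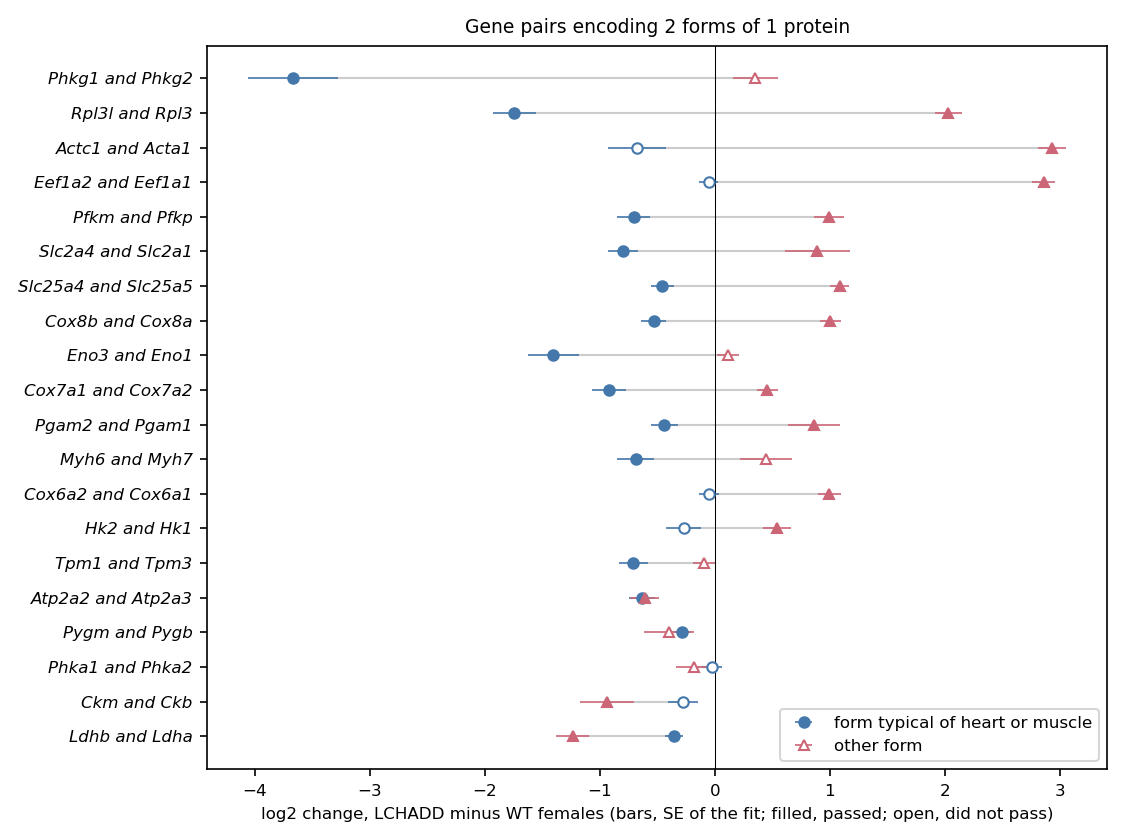
Log2 change, LCHADD minus WT females, of the form typical of heart or muscle (circles) and of the other form (triangles) in 20 gene pairs, with the SE of the fit as bars. Filled symbols passed and open ones did not, and the pairs run from the widest gap at the top to those where the other form lay lower at the bottom (Ckm and Ckb, Ldhb and Ldha).

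Mitochondrial chaperones and proteases had 10 rises and 1 fall among 20 tested genes (median log2 change 0.36). The 1 that fell was Spg7 (log2 change -0.72, adjusted p = 3.2e-04). Lonp1, the matrix protease, had 3122, 3039.9 and 3353 normalised reads in WT and 11282, 14619 and 8082 in LCHADD (log2 change 1.80, SE 0.18, adjusted p = 2.8e-04). Hspe1 (1.36), Hspa9 (1.04) and Hspd1 (0.87), chaperones of the matrix, rose. Chchd10 and Pink1 are counted in other lists. Chchd10, an intermembrane space protein, rose from 1840.2 ± 101 to 3761 ± 400.2. Pink1, the kinase that marks damaged mitochondria, had 13418, 13643 and 14485 in WT and 7134, 6191 and 7370.2 in LCHADD (-1.01, SE 0.09, adjusted p = 1.4e-04). Nuclear genes of complex I had 9 falls and 0 rises among 36 (median -0.09; 5 falls without WT female 1 or 2). Complexes II to IV had 4 rises and 7 falls among 28 (median -0.10; 11 falls without LCHADD female 3), and ATP synthase had 1 rise and 2 falls among 16 (median -0.07; 0 falls without LCHADD female 1 or any 1 WT library). The shares passing in these 3 lists were 25, 39.3 and 18.8%, against 26.3% of all tested genes. Of the 12 tested genes of the mitochondrial genome 3 rose and 0 fell (25% passing, median 0.37), 8 rose without LCHADD female 2, and 1 rose without any 1 WT library. Scaled to the reads of nuclear genes, 6 of the 12 rose and 0 fell. mt-Nd2 had 406558, 377188 and 367215 in WT and 631323, 603123 and 784067 in LCHADD (0.80, SE 0.15). These values move with the share of reads from the mitochondrial genome given above.

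Of 19 tested mitokines, signals released by stressed mitochondria and muscle, and their receptors 5 rose and 2 fell (median log2 change -0.01). Gdf15 had 11.7, 23.4 and 6.85 normalised reads in WT and 206, 632 and 188 in LCHADD (log2 change 4.44, SE 0.52, adjusted p = 6.0e-04). Bmp10, a growth factor mostly of the atria, had 3.13, 1.73 and 1.71 in WT and 38.3, 69.9 and 60.2 in LCHADD (4.15, SE 0.39), while of the other atrial markers none passed. Inhba, which makes activin A, had 31.3, 20.8 and 19.7 in WT and 353, 993 and 138 in LCHADD (3.91, SE 0.58). The groups were apart for all 3 genes. Apln, the ligand of a receptor that strengthens contraction, fell from 303 ± 32.2 to 80.7 ± 48.7 (-2.07). Fgfr1, a receptor for fibroblast growth factors, fell (-0.66).

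Antioxidant genes rose widely. Of 37 tested genes of NRF2 and glutathione 23 rose and 5 fell (median log2 change 0.57), and the falls numbered 1 without WT female 1 or 2 and 2 without LCHADD female 1. Hmox1, heme oxygenase, had 96.3, 114 and 95 normalised reads in WT and 289.8, 375 and 231 in LCHADD (log2 change 1.52, SE 0.18, adjusted p = 7.2e-04). Gclm, of glutathione synthesis, rose by 1.17 and Gpx4, which reduces lipid peroxides, by 0.66 on the log2 scale. Ftl1, the ferritin light chain, went from 377 ± 50.8 to 821 ± 72.9 (1.13), and Gsta2 from 11.4 ± 0.984 to 344 ± 54.1, though the Gsta genes are near copies of each other. Nfe2l2, which encodes NRF2, did not pass (0.09), and Keap1, its inhibitor, fell (-0.34).

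The unfolded protein response of the endoplasmic reticulum had 3 rises and 1 fall among 22 tested genes (median log2 change -0.18). Those passing were 18.2% of the list, below the 26.3% over all tested genes. The sensors Ern1, from 372 ± 26.5 to 1173 ± 293 (1.63), and Atf6 (0.77) rose, and so did Herpud1 (0.56). The chaperone Hspa5, the usual target of both sensors, had 7879, 8934 and 10431 normalised reads in WT and 5117, 7268 and 4609 in LCHADD and fell (-0.70, adjusted p = 0.016). It did not pass without LCHADD female 1, WT female 2 or WT female 3 (adjusted p = 0.066, 0.056 and 0.071), and 9 genes of the list fell without LCHADD female 2.

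Of 16 targets of p53 and growth arrest genes 8 rose and 3 fell (median log2 change 0.45), but the rises numbered 2, 3 and 4 without WT female 1, 2 and 3 and 5 without LCHADD female 1, and the falls 1 or 2 without any 1 library. Gadd45a had 96.3, 92.8 and 89 normalised reads in WT and 294, 504 and 304 in LCHADD (log2 change 1.93, SE 0.20). Immediate early genes had 9 falls and 1 rise among 17 (median -1.02), with 4 falls without LCHADD female 1 or WT female 2 and 5 without WT female 3. Nr4a1 had 1434, 1186 and 1268 in WT and 164, 195 and 432 in LCHADD (-2.42, SE 0.30, adjusted p = 8.4e-04), and Fos had 167, 316 and 147 against 29.5, 24.3 and 77.1 (-2.34, SE 0.43). Myc, a driver of ribosome synthesis, was the 1 that rose, from 32.9, 39.9 and 31.7 to 131, 227 and 199.7 (2.35, SE 0.23, adjusted p = 2.3e-04). The labels give no hour of collection, and the clock list had 5 falls and 1 rise among 19. Those passing were 31.6% of the list, against 26.3% of all tested genes. The falls numbered 8 without LCHADD female 2, and the rises 0 without any 1 library other than LCHADD female 2. Arntl, an activator of the clock, was at 212 ± 37.4 in WT and 96.9 ± 27.1 in LCHADD (-1.14) and Nr1d1, which Arntl's product and its partner activate, at 2002 ± 248 and 1147 ± 90.2 (-0.80).

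The markers of other cells moved as follows. Of 9 fibroblast markers 8 fell and 0 rose (median log2 change -0.58; 4 without WT female 1, 5 without WT female 2), and Gsn had 13999.7, 14052 and 13690.5 normalised reads in WT and 7602, 8458 and 6508 in LCHADD (-0.90, SE 0.10). Collagens and matrix genes had 21 falls and 1 rise among 39 (median -0.48; 14 falls without WT female 1, 13 without WT female 2), among them Timp2, an inhibitor of matrix proteases, at 1291 ± 74.4 in WT and 685 ± 51.3 in LCHADD. Ccn2, a profibrotic matricellular protein, fell from 799 ± 266 to 316 ± 61. Of 10 endothelial markers 5 fell and 0 rose, with 3 falls without LCHADD female 1, WT female 1 or WT female 3. Of 11 macrophage markers 3 rose and 0 fell, 27.3% passing against 26.3% of all tested genes, and 0 rose without LCHADD female 1, WT female 1 or WT female 2. C1qa, C1qb and C1qc were among those that did not pass. All 5 erythroid genes fell (median -1.66) with each library left out in turn, and Alas2, of heme synthesis in red cells, had 139, 138 and 187 in WT and 30.6, 41.7 and 60.2 in LCHADD. Most lymphocyte and neutrophil markers were below the filter. C3, the central complement component, fell from 1388 ± 258 to 501 ± 89.3 (-1.46). The part of the makeup of cells in the results above was not tested.

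Krt8 and Krt18, paired keratins counted here among mesothelial markers, rose. Krt18 had 3.91, 3.47 and 2.57 normalised reads in WT and 190.3, 217 and 64.4 in LCHADD (log2 change 5.03, SE 0.45, adjusted p = 1.5e-04). Krt8 had 2 reads over the WT libraries and 63 over the LCHADD libraries, a ratio of normalised reads of 39.2 (exact Clopper-Pearson 95% interval 10.4 to 331). Of the defining mesothelial genes, Msln, Upk3b, Upk1b and Krt19 were below the filter and Wt1 did not pass (-0.44). In cell cycle genes 2 rose and 2 fell of 22, with 18.2% passing against 26.3% of all tested genes. Ccnd2, cyclin D2, rose from 2263, 2427 and 1989 to 5415, 6766 and 5831 (1.43, SE 0.11), and Cenpf, a kinetochore protein, fell from 901, 925 and 616 to 31.7, 9.71 and 78.2 (-4.73, SE 0.58).

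The difference between the sexes was tested as the interaction of genotype and sex over all 12 libraries. Of 13865 genes 1 passed (0.00721%), which was Acta1, and 1363 genes (9.83%) had an unadjusted p under 0.05. DESeq2, which gave an adjusted p to only 5532 genes, called 101, and edgeR called 2. Among the 101 were, besides Acta1, the genes Rpl3l, Eef1a1, Rplp0, Rps12, Idh2, Ivd, Lpl, Atp2a2, Jph2, Kcnj11, Pink1, Hspe1, Spg7, Cox6a1, Ldhb, Myom2 and Ccn2 described above. Maoa, given below, was also among them. For these the call of a difference between the sexes depended on the test. For the other genes described limma made no such call, and neither did DESeq2 where it gave an adjusted p. The male change was smaller in size for Rpl3l (-0.83 in males, interaction adjusted p = 0.2), Idh2 (-0.20, 0.068) and Eef1a1 (1.87, 0.14), and larger, in the same limma fit, for Kcne1 (2.69, 0.37).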

How the data were processed

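Total RNA of fresh ventricle was isolated on columns for fibrous tissue and sequenced by Illumina, per the labels' protocols. The submitters' processing notes name GRCm39, bcl2fastq and DESeq2 without versions, and the aligner, counter, annotation and strand setting are, in the sources used here, not given. The deposited signal values are reads divided by 1 size factor per library: 100% of values in each library were whole multiples of 1 read's worth within 0.01, so reads were recovered. Symbols came from GENCODE vM21 for 51633 of 51912 gene IDs.

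Genes at 10 or more in at least 3 of the 6 libraries were tested with limma 3.58.1 in R 4.3.3 (trended variance) on log2(value + 1), a scale that understates changes of low genes, with Benjamini-Hochberg adjustment. Every adjusted p in the text is from that fit unless another is named. The fit was run on simulated data with known changes in a small part of the genes. Noise there was drawn separately for each gene and library, so it does not test how deviations shared by many genes affect the calls. Named genes were the 25 largest rises and falls with a mean of at least 50, up to 6 passing and 4 abundant other members of each list, and genes said to be chosen later. Slc6a9, Eprs, Gclm, Gpx4, Fabp3, Mccc1, Gys1, Tcap, Ccn2, Dbh, Cenpf and genes of the paralog pairs were named after their values were seen. Alternatives covered scaling, filter, added value, edgeR 4.0.16, DESeq2 1.42.0, array weights, the replicate number and each library. Intervals cover counting error only. The members and lists were chosen with earlier results of these data known. Some genes, and 1 paralog pair, are not reported here.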

Additional observations from a re-analysis of the deposited data

Results flagged for a closer look

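Acta1 (ENSMUSG00000031972), the skeletal muscle actin, changed more in females than in males, by 2.30 on the log2 scale (SE 0.29, interaction adjusted p = 0.011, limma over 12 libraries). Normalised reads were 2005, 1796 and 1408 for the female WT libraries against 13089, 13558 and 12646 for the female LCHADD libraries. In males they were 5755, 5172 and 3730 in WT and 9410, 8711 and 5000 in LCHADD. The female groups were apart and the male groups overlapped, and WT males lay above WT females. Over the alternatives the difference was 2.02 to 2.48. It did not pass with robust variances (adjusted p = 0.11) or without LCHADD female 1 (0.061), WT female 2 (0.050), WT female 3 (0.065) or WT male 2 (0.090).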

How the results depend on the processing

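The 3515 genes that passed numbered 6609 with array quality weights, 2143 when a change of at least 1.5-fold was also required, and 1966 to 4035 with 1 library left out (2060, 1966 and 2162 without WT female 1, 2 and 3, and 2277, 3907 and 4035 without LCHADD female 1, 2 and 3). Other settings gave 3115 to 4660. Of the 371 named genes that passed, 291 (without WT female 2) to 361 (without LCHADD female 2) still passed with 1 library left out. Ppp1r15a, 0.02 and not passing, was -0.28 with array quality weights. With the replicate number as a block 3115 genes passed, the lowest count among these other settings. Deviations of same-numbered libraries correlated at 0.055, -0.039 and -0.040, and those of differently numbered libraries at -0.047 to 0.065. With 3 libraries in each group these values cannot show whether the numbers pair the samples.

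The interaction, 1 gene, gave 101 with DESeq2, 2 with TMM scaling, edgeR or a filter at 50, 749 with array quality weights, 9 without LCHADD female 2 and WT female 3, and 0 to 186 with 1 library left out (186 without LCHADD female 3). No cause of these differences was tested.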

Other observations

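Among the largest changes outside the lists, Tfcp2l1, a transcription factor, had a log2 change of 5.00 (adjusted p = 1.8e-05), Steap2, a metalloreductase, of 4.56, and Maoa, which degrades noradrenaline and serotonin, of 4.31. Snd1 and Nhp2, a nuclease and a component of small nucleolar particles, rose by 1.95 and 1.94 on the log2 scale. Shisa6 was at -3.97, Cyp26b1, which degrades retinoic acid, at -2.86 and Ramp1, a receptor partner, at -2.60. Snd1 and Nhp2 were chosen after their values were seen.

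Vmn2r3, a vomeronasal receptor gene, had 1 read over the WT libraries and 3330 over the LCHADD libraries. Adm2, which encodes a vasodilator peptide, had 3 and 376 reads, a ratio of normalised reads of 156 (exact Clopper-Pearson 95% interval 53 to 760).

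Of 428 tested X-linked genes 55 rose and 46 fell (23.6% passing), against 26.3% of 12924 autosomal genes. Xist had 2027, 2059 and 1950 normalised reads in WT and 3565, 3806 and 4588 in LCHADD (log2 change 0.98, adjusted p = 3.2e-04). With all 12 libraries in 1 fit it did not pass (adjusted p = 0.099). That fit takes the variance of a gene from the male libraries too, and the female groups did not overlap.

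The CLEAR element TCACGTGA, searched on both strands, was in 2.21% of the promoters of genes that rose and in 0.978% of those of genes that fell, against 1.72% of tested genes. The PPAR repeat AGGTCANAGGTCA was in 6 of 10143 promoters of tested genes (0.0592%), 2 of 1315 of genes that rose and 0 of 1329 of genes that fell.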
